A study of Mus musculus with 2 samples.

Results

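The annexins are a family of proteins that bind phospholipid membranes when calcium rises, and their RNA was compared between resident and thioglycollate-elicited mouse peritoneal macrophages. The 8 genes considered were Anxa1, Anxa2, Anxa3, Anxa4, Anxa5, Anxa6, Anxa7 and Anxa11. Their values were taken from every probe set that the platform annotation assigned to 1 of these genes alone. By that rule 7 of the 8 genes were measured, by 17 probe sets, out of 18193 genes named in this way on the array. The single probe set that listed Anxa11 also listed other genes, so Anxa11 has no value in the comparisons.

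All cells came from C57BL/6J mice 8 weeks old, and 1 Affymetrix 3' expression array was hybridised for each group. The resident group held macrophages from the cavity of untreated mice. The elicited group held macrophages taken 3 days after 1 mL of 3% thioglycollate, a sterile irritant broth, was injected into the cavity. Both were allowed to adhere for 2 h and then washed per the labels' protocols, although the series description speaks of culture overnight, so the time in culture is uncertain. The sources used here do not say how many mice each array stands for.

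Each annexin has a conserved core that docks on negatively charged phospholipids through calcium ions, and an amino-terminal tail that differs between members and sets their partners. In phagocytes they are known for membrane traffic, repair of the plasma membrane and the resolution of inflammation. Anxa1 encodes a glucocorticoid-linked mediator that acts on formyl peptide receptors. Anxa2 encodes the partner of S100A10, with which it assembles plasminogen at the cell surface.

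Annexin RNA was higher on the elicited array for most members. Of the 7 genes measured, Anxa1, Anxa2, Anxa4 and Anxa5 were higher by 2-fold or more, none was lower by as much, and Anxa3, Anxa6 and Anxa7 were within 2-fold. Among all 11499 genes above the floor, 8.04% passed 2-fold upwards and 11.8% downwards. The floor is a signal of 82.2, derived from families such as the olfactory receptors, and lower signals were raised to it. The median log2 ratio, elicited minus resident, was 1.05 over the 7 annexin genes and -0.03 over all genes. With 1 array per group these differences carry no replicate error and were not tested. In RNA from a mixed cell harvest, fewer cells of a type and less RNA per cell cannot be told apart.

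**Figure D1:**
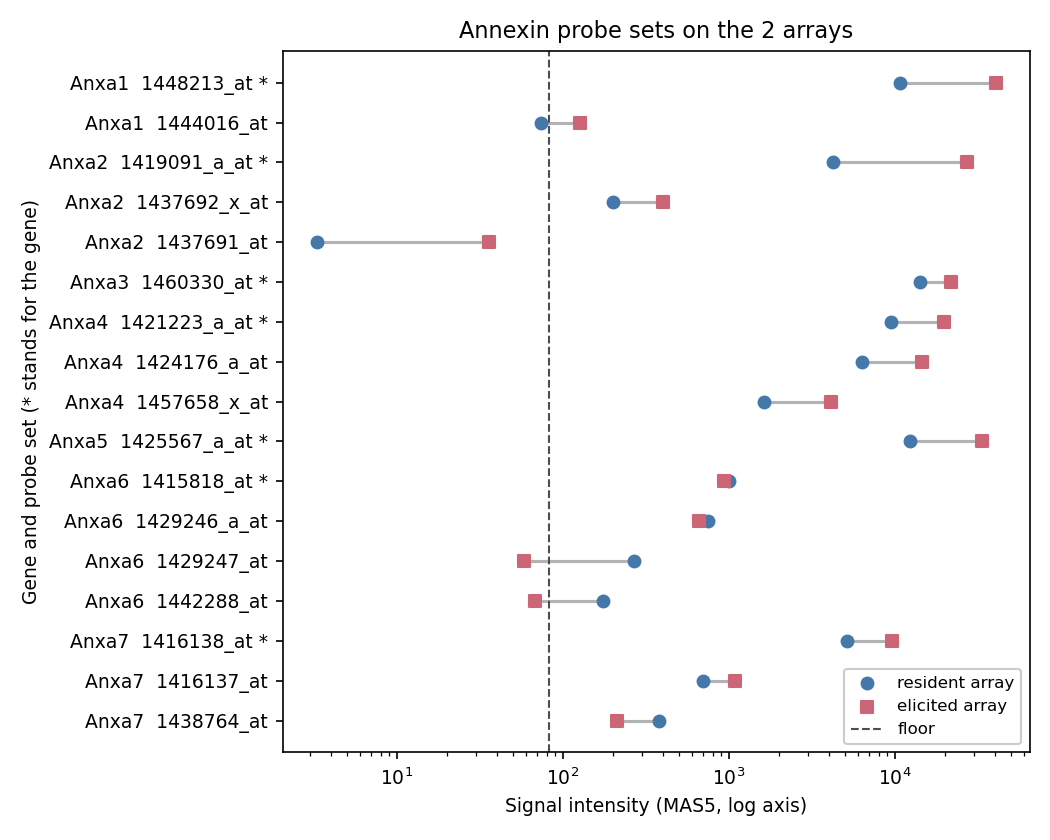
Signal intensity (log axis) of the 17 annexin probe sets on the resident array (circles) and the elicited array (squares), with a dashed line at the floor of 82.2 and an asterisk on the probe set that stands for each gene. The elicited array is the higher one for all probe sets of Anxa1, Anxa2 (1 of them below the floor on both arrays), Anxa3, Anxa4 and Anxa5, and the lower one for all 4 of Anxa6.

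Anxa2 had the highest ratio of the family. Its signals were 4271 (resident) and 27360.5 (elicited), a 6.41-fold difference (log2 ratio 2.68). A total of 105 of the 11499 genes had a higher ratio. A second probe set, of a kind that can cross-hybridise, was much dimmer, with signals of 201 and 400.5 (1.99-fold), and another was below the floor on both arrays. The 2 above the floor pointed the same way, but the size of the difference rests on the brightest.

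Anxa1 followed. Its signals were 10766 (resident) and 40696 (elicited), a 3.78-fold difference (log2 ratio 1.92). A higher ratio was found for 223 of all genes. Its other probe set read 74.1 in resident cells, below the floor, and 128 in elicited cells, so its ratio is a bound of at least 1.55-fold in the same direction.

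Anxa5 encodes the phosphatidylserine-binding protein used as a probe for dying cells. Its single probe set gave 12315 (resident) and 33682.5 (elicited), which is 2.74-fold apart (log2 ratio 1.45). Anxa4, known from secretory and epithelial membranes, was read by 3 probe sets above the floor, and they gave nearly the same answer. Their signals were 9551 and 19747.5 for the brightest, 6317 and 14592 for the next and 1640 and 4156 for the last, resident before elicited. The elicited values are thus 2.07-fold, 2.31-fold and 2.53-fold the resident ones. The last probe set is of the kind that can cross-hybridise. The brightest, which stands for the gene, lay just past the threshold of 2-fold. With quantile, loess or control-based scaling of the arrays its difference was 1.60-fold, 1.57-fold and 1.60-fold.

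The 250 bases before the annotated starts of the 4 genes past the threshold are printed here, since these members differed in the same direction. They are from RefSeq on GRCm38.p6, 5′ to 3′ on the strand of the gene. Capitals mark matches to 8 motifs searched on both strands. The positions are chr19:20390672-20390921 on the minus strand for Anxa1 and chr9:69453433-69453682 on the plus strand for Anxa2. They are chr6:86793585-86793834 on the minus strand for Anxa4 (the first of its 2 listed starts) and chr3:36475888-36476137 on the minus strand for Anxa5.
Anxa1: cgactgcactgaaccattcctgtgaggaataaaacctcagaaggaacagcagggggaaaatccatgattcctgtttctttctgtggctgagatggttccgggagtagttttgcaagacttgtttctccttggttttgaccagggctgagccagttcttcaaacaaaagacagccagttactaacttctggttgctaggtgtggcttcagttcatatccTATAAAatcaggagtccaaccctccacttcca
Anxa2: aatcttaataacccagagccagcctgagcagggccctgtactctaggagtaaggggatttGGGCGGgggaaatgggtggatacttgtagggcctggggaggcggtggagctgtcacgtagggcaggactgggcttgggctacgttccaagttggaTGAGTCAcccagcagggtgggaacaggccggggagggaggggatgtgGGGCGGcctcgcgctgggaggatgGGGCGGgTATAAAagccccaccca
Anxa4: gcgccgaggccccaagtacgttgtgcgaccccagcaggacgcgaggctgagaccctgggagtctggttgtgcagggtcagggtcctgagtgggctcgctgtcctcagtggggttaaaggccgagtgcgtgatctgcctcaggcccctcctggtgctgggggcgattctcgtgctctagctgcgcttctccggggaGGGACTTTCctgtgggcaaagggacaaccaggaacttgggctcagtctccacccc
Anxa5: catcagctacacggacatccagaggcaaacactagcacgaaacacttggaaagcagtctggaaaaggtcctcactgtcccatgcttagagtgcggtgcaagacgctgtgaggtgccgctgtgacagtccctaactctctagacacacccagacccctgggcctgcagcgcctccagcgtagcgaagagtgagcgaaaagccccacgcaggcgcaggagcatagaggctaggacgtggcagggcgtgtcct

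The windows of these genes differed in the motifs they held. The window of Anxa1 held a TATA box, spelled TATAAA, from 32 to 27 bases before the start. The window of Anxa2 held the same letters from 17 to 12 bases before the start, together with 3 GC boxes spelled GGGCGG and 1 AP-1 motif spelled TGANTCA. No 2 of these matches overlapped. TATAAA was found in 12.4% of 32851 promoter windows of this length, GGGCGG in 32.7% and TGANTCA in 6.75%. The Anxa4 window held the kappaB letters GGGACTTTC from 55 to 47 bases before the start, which 0.289% of all windows hold. The window of Anxa5 held none of the 8 motifs. The others searched were CCAAT (33.8% of all windows), the PU.1 letters GAGGAAG (10.6%), the MiT/TFE E-box CACGTG (6.02%) and the glucocorticoid receptor half-site TGTTCT (16.1%), and none of these 4 was in the windows printed. The window of the second listed start of Anxa4, which is not printed, held 2 matches to TGTTCT. The share of G and C was 46.0% for Anxa1, 62.4% for Anxa2, 64.8% for Anxa4 and 58.8% for Anxa5, against a median of 52.4%. A match describes letters only.

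Anxa7, synexin, a calcium-dependent membrane fusion protein, was within 2-fold. Its brightest probe set gave 5162 (resident) and 9673 (elicited), 1.87-fold higher, and the next gave 697 and 1092 (1.57-fold higher). The dimmest pointed the other way, with signals of 381 and 211 (1.80-fold lower). The probe sets of Anxa7 thus did not share a direction. Of the 2 starts listed for Anxa7, the window of the second held 4 GC boxes and the only CACGTG match among the annexin windows searched.

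Anxa3, an annexin of myeloid cells, had signals of 14296 (resident) and 21938 (elicited). This 1.53-fold difference (log2 ratio 0.62) is 0.22 above the median of 0.40 among the brightest 10% of genes, less than the spread between probe sets of 1 gene (an SD of 0.47 on the log2 scale).

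Anxa6, a large annexin with a duplicated core that is linked to late endosomes and cholesterol, was the 1 member whose ratio was below 0 as deposited. Its brightest probe set gave 1004 (resident) and 938 (elicited), and the next 754 and 663. Those log2 ratios of -0.10 and -0.19 are smaller in size than the same SD. The 2 dim probe sets of Anxa6 differed more. Their signals were 269 and 57.9, and 175 and 67.9, with the elicited array at or below the floor in both, so they were at least 3.28-fold and at least 2.12-fold lower. The direction of the brightest probe set turned with the scaling, with log2 ratios of 0.21 with equal medians, 0.08 with quantile, 0.04 with loess and -0.47 with control-based scaling.

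**Figure D2:**
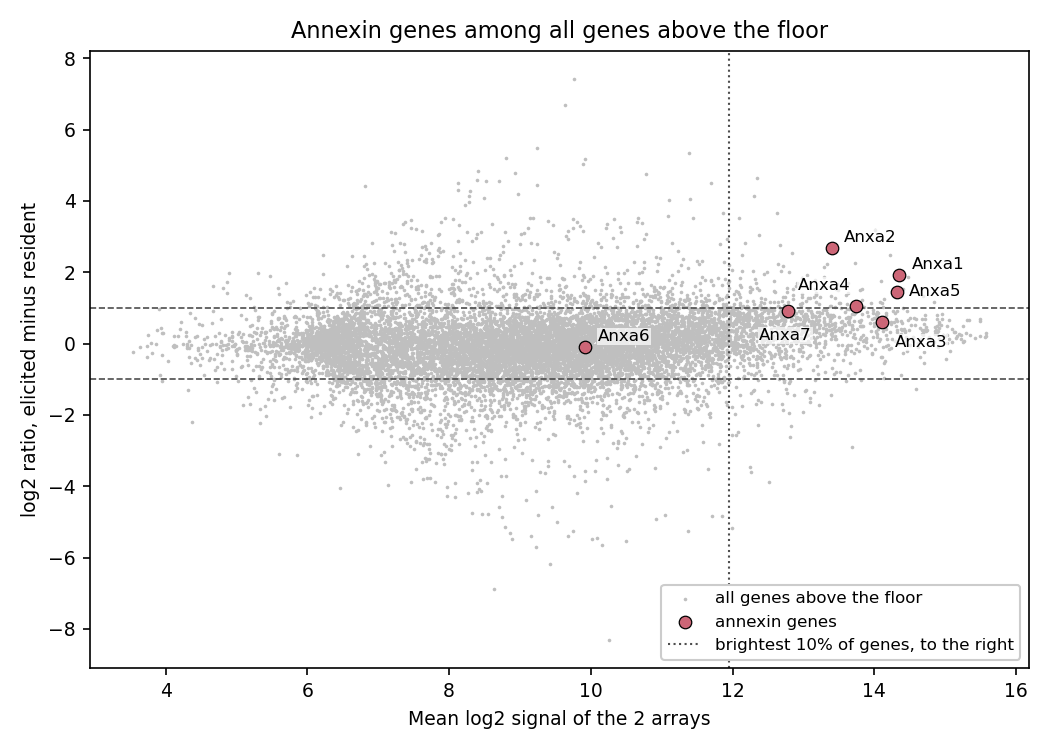
Log2 ratio, elicited minus resident, against the mean log2 signal of both arrays for the 11499 genes above the floor (grey) and the 7 annexin genes (red), with dashed lines at 2-fold and a dotted line where the brightest 10% of genes begin. Anxa2 and Anxa1 lie above most genes of like signal, while Anxa6 lies in the middle of the cloud.

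Signal itself was related to the ratio, so the annexins were also set against genes of like brightness. Of the 7 genes, 6 (all but Anxa6) were among the 1150 genes with the highest mean signal. In that group 12.8% of genes passed 2-fold upwards and 4.26% downwards, and the median log2 ratio was 0.40. The 6 annexins had a median of 1.25, with 4 of them past 2-fold upwards. Within the group, 8 genes had a higher ratio than Anxa2, 25 than Anxa1, 60 than Anxa5, 124 than Anxa4, 187 than Anxa7 and 407 than Anxa3. This background depended on the scaling. With equal medians 29.5% of the brightest genes passed upwards and their median was 0.71, while quantile, loess and control-based scaling gave 6.53%, 6.35% and 6.28%, with medians of 0.06, 0.05 and 0.03.

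The members differed among themselves. In descending order of log2 ratio they were Anxa2, Anxa1, Anxa5, Anxa4, Anxa7, Anxa3 and Anxa6. The SD of 0.47 between probe sets, measured over 4465 genes, gives an SD of 0.67 for a difference between a pair of genes. This covers probe differences within these arrays and not differences between animals. The gap between Anxa2 and Anxa1 (0.76) and that between Anxa3 and Anxa6 (0.71) exceeded it as deposited. The gaps between the other neighbours, from 0.14 to 0.47, did not. Both larger gaps fell below the SD of 0.67 under another setting. Anxa3 and Anxa6 were at 0.27 and 0.08 with quantile scaling and at 0.20 and 0.04 with loess. Anxa2 and Anxa1 were at 1.84 and 1.28 with the mean of probe sets. With the mean of all probe sets of a gene, Anxa5 (1.45) came before Anxa1 (1.28) and Anxa3 (0.62) before Anxa7 (0.23). Signals of different genes come from different probes and give no order of RNA levels.

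Scaling changed the sizes, while Anxa2, Anxa1 and Anxa5 led in this order under each of 4 scalings. Equal medians and control-based scaling shift the ratios of all annexins alike, so only quantile and loess could have changed the order. For equal medians, the medians were matched over every probe set that exceeded the floor in resident and elicited cells alike, bright or dim. The other scalings made the distributions equal (quantile), removed a loess trend of ratio on signal, or used the spiked hybridisation controls. The deposited values of these controls were 1.29-fold higher after elicitation. In the order given, the 4 scalings moved the median of all genes from -0.03 to 0.25, 0.16, 0.07 and -0.36. Under these 4 scalings Anxa2 was from 4.95-fold to 7.93-fold higher, Anxa1 from 2.79-fold to 4.68-fold and Anxa5 from 2.02-fold to 3.39-fold. With loess, quantile and control-based scaling 3 annexins passed 2-fold upwards, and with equal medians 5, with Anxa7 added at 2.32-fold. The background moved too: the share of all genes that passed upwards was 14.2% with equal medians, 11.02% with quantile, 9.29% with loess and 4.52% with control-based scaling. Among all genes that passed 2-fold either way, 40.5% did so upwards as deposited, against 65.9%, 57.9%, 50.1% and 18.2% under these scalings in the same order.

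**Figure D3:**
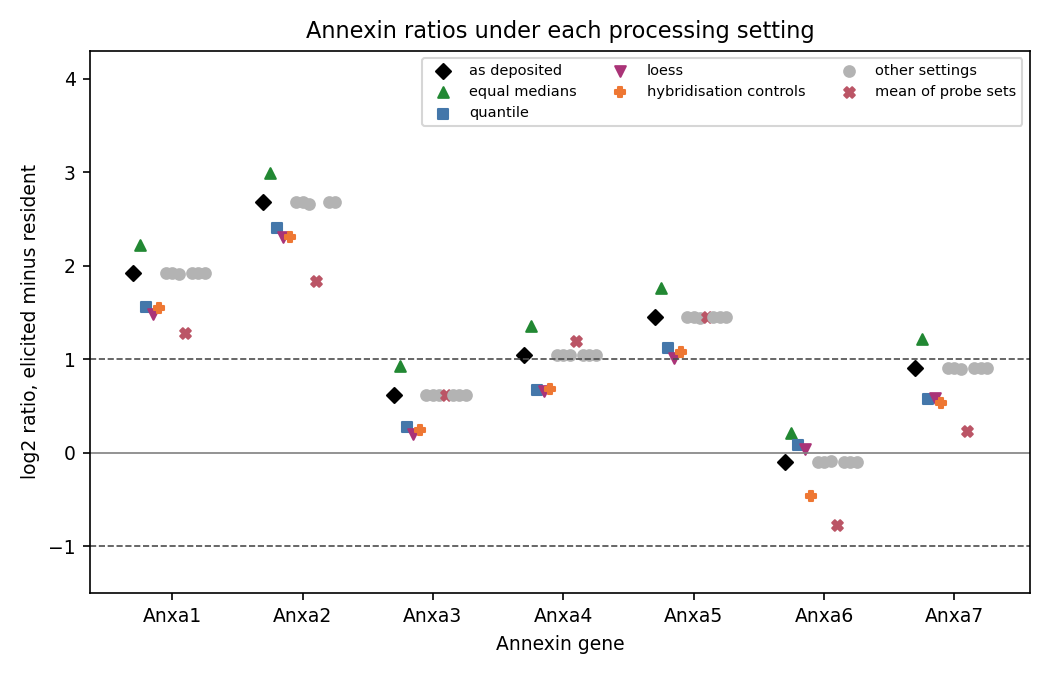
Log2 ratio, elicited minus resident, of each annexin gene as deposited (diamonds) and under the other processing settings (other symbols), with dashed lines at 2-fold. Anxa1, Anxa2 and Anxa5 lie above the upper line under each setting that gave them a value, while Anxa6 falls on both sides of 0.

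Partners of the annexins were taken from 7 lists, and 35 of their genes were above the floor. Of these 35, 10 passed 2-fold upwards and 6 downwards, against 8.04% and 11.8% of all genes. Those shares of all genes are the background for the counts of each list as well. The median log2 ratio of the 35 was 0.43. That median was not stable to the processing: it was 0.71 with equal medians, 0.15 with the floor at the 99th percentile and -0.01 when probe sets with a suffix before _at were set aside. The first list held the other family members. Anxa9 had signals of 144 and 219 (log2 ratio 0.61), and Anxa8, Anxa10 and Anxa13 did not exceed the floor on either array.

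Among the calcium-binding S100 and EF-hand partners, 3 of 5 measured genes passed 2-fold upwards and none downwards (median log2 ratio 1.79). S100a10, the partner of annexin A2 in its surface complex, had signals of 5253 (resident) and 19195 (elicited), a 3.65-fold difference. The log2 ratios of its probe sets ranged from -0.10 to 2.18, so they did not all show this. S100a6 and S100a4 were 5.84-fold and 3.47-fold higher. Pdcd6, a binding partner of annexins A7 and A11, had a log2 ratio of 0.73, and Sri (sorcin), which binds annexin A7, one of -0.36. The probe sets of Sri ranged from -2.05 to -0.36. S100b was not above the floor, and S100a11 and S100p were not analysed here.

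Of 5 listed formyl peptide receptor genes for annexin A1, the 1 that was measured went the other way. Fpr2, a formyl peptide receptor through which annexin A1 acts in mice, gave 9793 (resident) and 212 (elicited), 46.2-fold lower. Fpr-rs3 and Fpr-rs4 did not exceed the floor on either array, and Fpr1 and Fpr3 were not analysed here. On these arrays the ligand RNA was thus higher and that of its measured receptor lower on the elicited array.

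The glucocorticoid list, which holds the pathway that induces Anxa1, was divided. Of 6 measured genes, Tsc22d3 (GILZ, 3.67-fold) and Dusp1 (3.23-fold), a transcriptional regulator and a phosphatase induced by glucocorticoids, passed 2-fold upwards. The log2 ratios of the probe sets of Tsc22d3 ranged from 0.06 to 2.08. Per1 was 2.05-fold lower, but under 2-fold with equal medians, quantile and loess scaling. Nr3c1, the glucocorticoid receptor gene, had signals of 2168 and 1260 (log2 ratio -0.78), and its probe sets ranged from -1.52 to -0.78. Fkbp5 had a log2 ratio of -0.47 and Pla2g4a, the cytosolic phospholipase restrained by annexin A1, one of -0.92. The list median was -0.62. With control-based scaling Nr3c1 (-1.15) and Pla2g4a (-1.29) also passed 2-fold downwards, which made 3 of 6 lower, and the median was -0.996.

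The plasminogen system, which meets annexin A2 at the cell surface, had 1 of 5 measured members past 2-fold upwards and 1 downwards (median log2 ratio 0.43). Plat, the tissue activator, read 23.0 in resident cells, below the floor, and 180 in elicited cells, at least 2.19-fold higher, although at a log2 ratio of 0.95 with control-based scaling. Serpinb2, an activator inhibitor, was 30.5-fold lower (10677 and 350.0). Plaur, the urokinase receptor gene, had signals of 3092 and 5657 (log2 ratio 0.87), Plau a log2 ratio of at least 0.43 and Plgrkt one of -0.08, which turned to 0.23 with equal medians. Plg was not above the floor, and Eno1 was not analysed here.

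Of 8 measured membrane repair genes, 1 passed 2-fold upwards and none downwards (median log2 ratio 0.48), against 8.04% and 11.8% of all genes. The 1 gene past the threshold was Capn2, a calcium-activated protease subunit, with signals of 1204 and 3622 (3.01-fold). Myof (0.75), Capns1 (0.63), Chmp4b (0.56) and Vps4b (0.40) had positive log2 ratios below the threshold as deposited. With equal medians Myof passed it (1.06), which made 2 of 8 higher. Pdcd6ip (0.15), Capn1 (-0.01) and Ahnak (-0.30), whose product binds the annexin A2 and S100A10 complex, each changed sign under at least 1 scaling. The probe sets of Ahnak disagreed, with log2 ratios from -0.30 to 1.82. Those of Pdcd6ip ranged from -0.85 to 0.15 and those of Vps4b from -0.21 to 0.40. Dysf and Trim72 did not exceed the floor on either array.

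**Figure D4:**
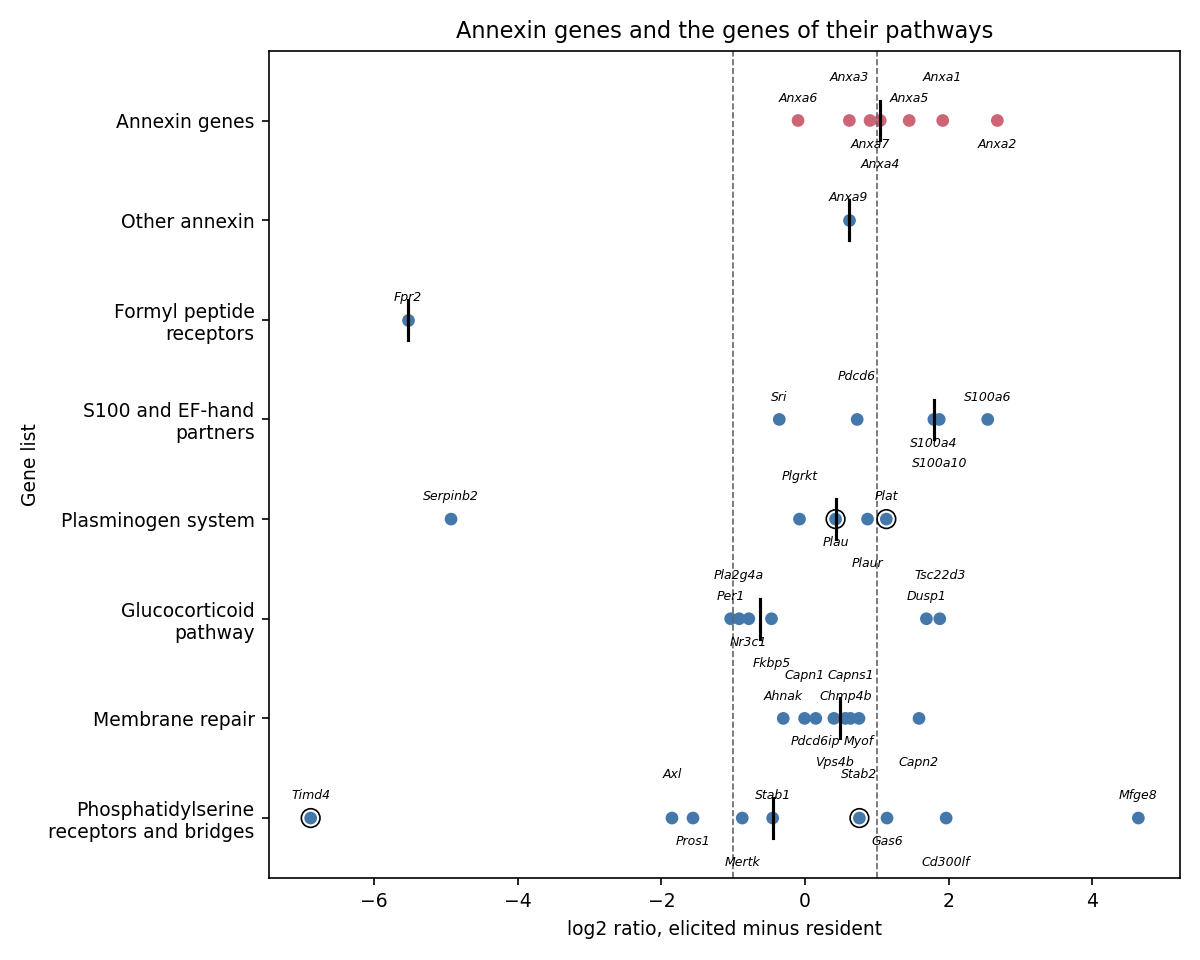
Log2 ratio, elicited minus resident, of the 7 annexin genes (red) and the 35 measured genes of the partner lists (blue), with the median of each list as a black bar and dashed lines at 2-fold; open rings mark ratios that are bounds against the floor. Fpr2, Serpinb2 and Timd4 lie far to the left and Mfge8 lies furthest to the right. S100a10, S100a6 and S100a4 lie with Anxa1 and Anxa2 past 2-fold on the right, as do genes of other lists such as Cd300lf, Tsc22d3, Dusp1 and Capn2.

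The genes nearest to 2 of the annexins in the plane of the 2 log2 signals were sought among the 9820 genes that exceeded the floor on both arrays. For Anxa2 these were Rnh1 (log2 distance 0.33), Psmd8 (0.41) and Trem2 (0.55), with elicited signals 4.68-fold, 4.40-fold and 4.82-fold the resident ones. For Anxa6 they were Lztfl1, Arel1 and Dusp22, at distances of 0.01, 0.02 and 0.02. With 2 arrays, likeness means like signals on both and no more.

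Markers of other cell types differed between the arrays in both directions. The background for the counts of these lists is again the 8.04% of all genes that passed 2-fold upwards and the 11.8% downwards. Of 13 measured mesothelial and fibroblast markers, cells known to express Anxa1, Anxa2 and Anxa5, 9 passed 2-fold upwards and none downwards. Only 4 of the 13 exceeded the floor on the resident array, while all 13 did on the elicited one. The rest counted as measured through the elicited array alone, so their ratios are bounds and could not have been downward. The summed signal of the 15 listed genes was 869 in resident and 16859 in elicited cells, led by Col1a2 (166 and 5452), while the mesothelial gene Msln and the fibroblast gene Lum did not exceed the floor on either. Of 9 measured B cell markers, 7 passed 2-fold downwards, with summed signals of 24652 and 4954 over the list. The other 2 were Pax5 (log2 ratio 0.18) and Cd22, with signals of 2269 and 4078. Cd22 thus makes up most of the elicited sum. Cd79a and Ebf1 exceeded the floor on the resident array alone, so their ratios are bounds that could not have been upward. The 10 macrophage markers had summed signals of 142083 and 139908, although 2 of them passed 2-fold upwards and 3 downwards (median log2 ratio -0.51). Mrc1 and Fcgr1 were the higher ones (1.98 and 1.35 on the log2 scale), and Itgam and Cd14 were among the lower ones (-1.58 and -1.45). Cd163 alone of them was below the floor on the elicited array. The part of these cells in the annexin differences was not tested.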

How the data were processed

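RNA from 1 resident and 1 elicited sample was measured on an Affymetrix 3' array, with biotinylated cRNA made from 100 ng of total RNA. The deposited values are linear signal intensities for 45101 probe sets. Per the submitters' processing notes, the authors used MAS5. The sources used here give no version, scaling target or detection calls. Their trimmed mean (2% left out at each end) was 500.0 on both arrays. Signs of RNA quality were alike (beta-actin 3′ to 5′ ratio 1.19 and 1.22).

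Gene names came from the platform annotation, updated through the GRCm38.p6 RefSeq table (34754 of 34945 probe sets of 1 gene matched). The probe set with the highest mean signal (log2) stood for its gene. The floor of 82.2 is the 95th percentile of 126 probe sets of olfactory, vomeronasal and taste receptor and keratin-associated protein genes over both arrays. A ratio against an array below it is written as a bound. A difference of at least 2-fold is the threshold used, and no test was run, since 1 array per group gives none. The number of arrays limits the precision. Promoter windows were found for 6 of the 8 genes.

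All 8 members and their probe sets were named, with the measured genes of the partner lists and the 3 nearest genes of the members with the highest and the lowest ratio. The members and lists were chosen with earlier results of these data known. The marker lists for neutrophils, mast cells, eosinophils, T cells and resident macrophages had medians of -1.21, -1.70, 0.53, -0.98 and -3.56. All 5 measured mast cell markers exceeded the floor on the resident array alone, so their ratios are bounds that could not have been upward. Of 4 measured T cell markers, only Cd28 (log2 ratio 1.52) exceeded it on the elicited array, and of 8 resident macrophage markers 5 did. The eosinophil median is that of 2 genes, Siglecf (1.66) and Il5ra (-0.60). Alternatives changed the scaling, the floor, the pseudocount, the probe set and the filter on dim genes. The calculations were tested on simulated data. Python 3.11.15, numpy 2.4.6, pandas 2.3.3 and statsmodels 0.14.6 were used.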

Additional observations from a re-analysis of the deposited data

Results flagged for a closer look

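The probe set that listed Anxa11 together with Gm2274 and Gm2260 was outside the comparisons, because it names 3 genes. Its signals were 586 (resident) and 775 (elicited), above the floor of 82.2 on both (log2 ratio 0.40). Which of the 3 genes gave the signal was not tested.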

How the results depend on the processing

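Anxa1 and Anxa5 were at least 2-fold higher under all 11 alternatives, and Anxa2 under the 10 that gave it a value. Changes of the floor, the pseudocount or the filter could hardly move signals this bright. For Anxa5, which has a single probe set, only the scalings could alter the ratio much. For Anxa1 and Anxa2 the mean of probe sets could as well. When probe sets with a suffix before _at were set aside, the remaining one of Anxa2 was below the floor, and 3 of 6 annexins were at least 2-fold higher. Averaging all probe sets of a gene moved Anxa1 to 1.28, Anxa2 to 1.84, Anxa6 to -0.77 and Anxa7 to 0.23 on the log2 scale, since their dim probe sets gave other ratios. The annexin median stayed between 0.65 and 1.36 and no annexin was at least 2-fold lower in any setting. Of all genes, 924 were at least 2-fold higher and 1357 lower as deposited, 1640 and 848 with equal medians, and 525 and 2367 with scaling on the hybridisation controls. The floor of the resident array alone (92.7) was added after the data were seen, and it left 4 annexins at least 2-fold higher. No paired analysis was possible because each group has 1 array. Dim probe sets near the floor give bounds only.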

Other observations

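Receptors and bridge proteins for phosphatidylserine, the lipid that annexin A5 binds, had no common direction. Of 9 measured genes, 3 passed 2-fold upwards and 3 downwards (median log2 ratio -0.45), against 8.04% and 11.8% of all genes. Mfge8, a bridge to integrins, had signals of 1039 and 25982, and Cd300lf, a receptor of myeloid cells, 833 and 3254. Gas6, a ligand of the TAM receptors, was 2.21-fold higher, but had a log2 ratio of 0.77 with control-based scaling. The other ligand gene, Pros1, was 2.95-fold lower and the receptor gene Axl 3.61-fold lower (2815 and 779). Timd4 was at least 118-fold lower. Mertk (-0.87), Stab1 (-0.45) and Stab2 (at least 0.76) had log2 ratios within the threshold, and Adgrb1 was not above the floor.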
